A study of Homo sapiens with 4 samples.

Results

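The heat shock factor target chaperones described here are 9 chaperone genes, HSPA1A, HSPA1B, HSPH1, HSPB1, HSP90AA1, DNAJB1, HSPA8, HSPD1 and HSP90AB1, together with HSF1, the transcription factor that drives the inducible ones. They were chosen by name as all probes whose gene symbol in the authors' normalized table is 1 of these 10, which gave 18 of 48908 probes with a symbol and 10 of 34755 genes. The study asked how SUM149 cells, a line from a triple-negative inflammatory breast cancer, change their RNA when HDAC6 is inhibited with Ricolinostat (ACY1215). RNA was taken from untreated SUM149 cells and from SUM149 cells after 3, 6 and 12 h with 2.5 uM of the drug. Each of the 4 conditions was hybridised once, in Cy5, to a 2-colour Agilent array, against a reference in Cy3 that the labels describe as a mix of all 4 RNAs. All groups are of 1 cell line, no vehicle-treated group is named in the labels, and the single untreated array serves all 3 comparisons, so drug and time in culture cannot be told apart.

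HSF1 is kept inactive by chaperones in unstressed cells, and when unfolded protein occupies those chaperones it assembles on inverted repeats of the letters GAA upstream of chaperone genes. HSP70 proteins, with a J-protein that delivers the client and an exchange factor that resets the cycle, refold proteins or pass them to HSP90. HDAC6 removes acetyl groups from HSP90 and was described in a complex with HSP90 and HSF1, which is why these genes are of interest after an HDAC6 inhibitor.

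The letters that HSF1 recognises lie upstream of most of these genes, inducible and constitutive alike. In the RefSeq promoter table (GRCh38.p14), which holds 9 of the 10 genes in 15 windows, the 250 bases before each start were searched on both strands for 2 facing units (GAANNTTC or TTCNNGAA) and for 3 (GAANNTTCNNGAA or TTCNNGAANNTTC, each of which also holds the shorter motif). The shorter motif was in 8 of the 15 windows, belonging to 8 of the 9 genes (the exception was HSPH1), and in 11.6% of all 35116 windows of that length. The longer one was in 4 of the 15 windows and in 0.441% of all windows. Those 4 genes were HSP90AA1 among the inducible genes, and HSPA8, HSPD1 and HSP90AB1, which are all 3 of the constitutive ones. The stretches below are shown because they set the genes that rose at least 2-fold (HSPA1A, HSPA1B, DNAJB1) beside 2 that did not. For each gene 1 stretch is shown, with 1 motif in capitals and 20 bases on each side, read 5′ to 3′ on the gene's own strand. Another motif of HSP90AA1, from 68 bases before the start, lies in lower case in its flank. Further motifs of DNAJB1 (from 77 bases before the start) and HSPA8 (from 230) are not shown.
HSPA1A, chr6:31815417-31815464, plus strand, motif from 106 bases before the start: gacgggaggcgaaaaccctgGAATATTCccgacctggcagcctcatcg
HSPA1B, chr6:31827613-31827660, plus strand, motif from 105 bases before the start: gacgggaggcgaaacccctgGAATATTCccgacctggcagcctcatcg
DNAJB1, chr19:14518417-14518464, minus strand, motif from 47 bases before the start: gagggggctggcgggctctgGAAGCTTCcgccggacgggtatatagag
HSP90AA1, chr14:102087100-102087152, minus strand, motif from 88 bases before the start: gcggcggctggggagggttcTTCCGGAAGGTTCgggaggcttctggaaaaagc
HSPA8, chr11:123062159-123062211, minus strand, motif from 55 bases before the start: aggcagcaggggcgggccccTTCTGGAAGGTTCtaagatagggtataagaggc
The HSPA1A and HSPA1B stretches carry the same motif, and over the whole upstream 250 bases the pair matched in 235 of 251 aligned columns (93.6%). A match to these letters is a description of the sequence and was not tied to binding of HSF1 in these cells.

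Values below are log2 ratios of Cy5 over Cy3, and a log2 change is the ratio on a treated array minus that on the untreated array, so that 1 is a 2-fold rise. With 1 array per condition there is no replicate and no p-value. The only error that could be measured was that between repeated spots on the same array: over 297 probes printed at least 9 times, the median SD of a log2 change was 0.11 at 3 h, 0.11 at 6 h and 0.10 at 12 h. This SD leaves out the spread between cultures and between labellings. All 4 arrays were on 1 slide, and no spot was saturated. Physical damage affected 3.38% of spots on the untreated array and 4.71% at 3 h, against 0.199% and 0.00821% at 6 and 12 h, and 0 of the 18 probes lay in a damaged area. All 18 passed the scanner's criterion for a signal well above background, in Cy5 and in Cy3, on every array. Of 11 epithelial markers 10 were detected in untreated cells, with raw Cy5 signals from 975.5 (EGFR) to 126980 (KRT7), and the spot of the other, KRT6A, was flagged as an outlier. The 8 markers of fibroblasts, leukocytes, endothelium and liver on the array also passed that criterion in Cy5, at raw signals between 41.5 (PECAM1) and 349 (COL1A1). The Cy3 reference did not look like the mix on its label: 187 genes were at least 8-fold lower in Cy5 than in Cy3 on all 4 arrays and 53 at least 8-fold higher. ALB, the albumin gene of liver, had a log2 ratio of -7.03 in untreated cells. A change from untreated uses the reference as a common yardstick, and values from Cy5 alone are given where they differ.

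HSPA1A and HSPA1B, the near-identical neighbouring genes for the stress-inducible HSP70, rose most of the 10 genes at every time point. The HSPA1A probe (A_23_P111132, NM_005345) is printed 10 times on each array. Its log2 ratio was 0.71 in untreated cells, 1.96 at 3 h, 2.53 at 6 h and 1.90 at 12 h. On each treated array every one of its spots was above every spot of the untreated array: untreated spots ran from 0.55 to 0.86, those at 3 h from 1.90 to 2.07, at 6 h from 2.38 to 2.65 and at 12 h from 1.83 to 1.98. Matched by position, the log2 change was 1.25 ± 0.071 at 3 h (SD over 9 spots), 1.81 ± 0.10 at 6 h (10 spots) and 1.19 ± 0.089 at 12 h (9 spots). These correspond to 2.37-fold, 3.52-fold and 2.28-fold. The maximum at 6 h stood clear of its neighbours in time, with a further gain of 0.56 ± 0.071 between 3 and 6 h and a difference of -0.61 ± 0.083 between 6 and 12 h (9 spots each). All these errors are between spots of the same hybridisation.

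**Figure D1:**
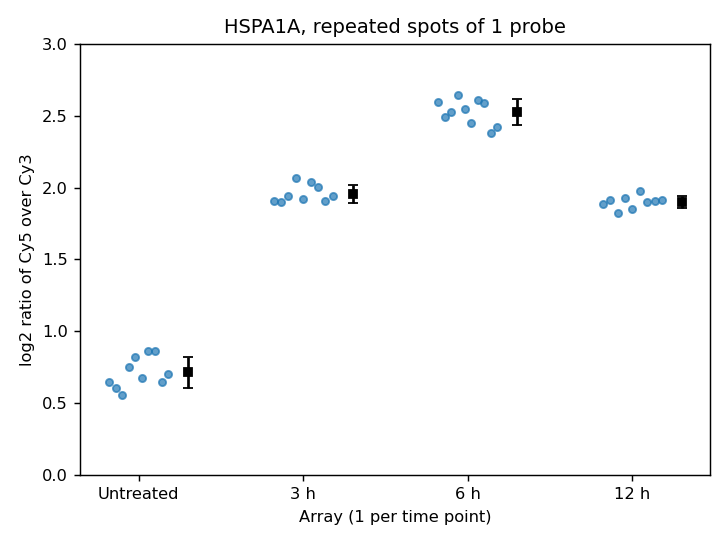
Log2 ratio of Cy5 over Cy3 for each spot of the HSPA1A probe on the 4 arrays (blue points), with the mean ± SD over spots beside them (black squares and bars). The 10 untreated spots lie between 0.55 and 0.86 and do not overlap those of any treated array. The highest array is that at 6 h, where spots lie between 2.38 and 2.65.

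HSPA1B was measured by another probe (A_33_P3415430, NM_005346) with 1 spot, whose log2 ratio was 0.75 in untreated cells, 1.98 at 3 h, 2.56 at 6 h and 1.92 at 12 h. The changes were 1.23, 1.81 and 1.17, each within the technical SD of the HSPA1A value. Raw Cy5 signals were 6013 untreated and 16709 at 6 h for HSPA1B, beside 15117 and 41333 for HSPA1A. The coding parts of the 2 genes are nearly the same, and the probe sequences were not used here, so the probes may read the same transcripts and are not counted as independent of each other. Among the genes tested at each time, HSPA1A ranked 156 from the top at 3 h, 41 at 6 h and 268 at 12 h.

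DNAJB1, the J-protein that hands clients to HSP70, had a log2 ratio of 0.54 in untreated cells, 1.09 at 3 h, 1.62 at 6 h and 1.25 at 12 h. The change was 0.55 at 3 h, reached 1.08 at 6 h (2.12-fold) and was 0.71 at 12 h. It thus passed 2-fold at 6 h alone, and the gain of 0.53 between 3 and 6 h and the difference of -0.37 between 6 and 12 h both exceeded the technical SD. The gene has a single probe (A_23_P90062) with 1 spot on each array.

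HSPH1, the HSP110 exchange factor of HSP70, was represented by 2 probes for the same transcript record (NM_006644). The brighter one (A_23_P88119) had log2 ratios of 0.75, 1.05, 1.33 and 1.12 in untreated cells and at 3, 6 and 12 h, hence changes of 0.29, 0.58 and 0.36. The dimmer one (A_33_P3348752) had ratios of 0.72, 1.34, 1.54 and 1.32, hence changes of 0.62, 0.82 and 0.60. Both were highest at 6 h and both stayed under 2-fold. The probes differed by 0.33 at 3 h and by 0.24 at 6 and 12 h, more than the technical SD. With median centring both were highest at 3 h instead, at 0.38 and 0.76 beside 0.32 and 0.63 at 6 h. In Cy5 alone the dimmer probe kept changes of 0.76, 0.78 and 0.57, whereas the brighter one gave 0.25, 0.11 and -0.14, while its own Cy3 signal was 0.46 lower at 6 h and 0.49 lower at 12 h than on the untreated array.

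HSP90AA1, the stress-inducible cytosolic HSP90, showed positive log2 changes on all 3 probes at all 3 times, between 0.14 and 0.37. The brightest probe (A_33_P3665777) went from 0.14 at 3 h to 0.35 at 6 h and 0.37 at 12 h. A probe for another transcript record (A_23_P162874, NM_005348) gave 0.26, 0.32 and 0.24, and the third (A_32_P199252) gave 0.17, 0.22 and 0.17. These differences came with lower reference signals: the Cy3 signal of the 3 probes was 0.21 to 0.43 lower on the treated arrays than on the untreated one. In Cy5 alone the changes lay between -0.39 and 0.01, so no HSP90AA1 rise above the technical SD was seen in the sample channel. What moved the reference signal was not tested.

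HSPB1, the small heat shock protein HSP27, gave no single direction. Its probes A_21_P0013662 and A_33_P3287646 had changes of 0.05, 0.13 and 0.32 and of 0.07, 0.05 and 0.19 at 3, 6 and 12 h. The third, A_33_P3353242, had -0.21, -0.30 and -0.16. That probe was dim, with a raw Cy5 signal of 511 in untreated cells beside 23565 and 31582 for the others. The spread between probes reached 0.48 at 12 h, larger than any of the gene's changes.

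No constitutive chaperone reached 2-fold in either direction. HSPA8, the everyday cytosolic HSP70 (A_33_P3390758), had log2 ratios of 1.15, 0.92, 0.94 and 0.76 in untreated cells and at 3, 6 and 12 h, which are changes of -0.23, -0.21 and -0.39. HSPD1, the mitochondrial HSP60 (A_32_P25273), had ratios of -0.06, -0.04, -0.16 and -0.44, which are changes of 0.02, -0.10 and -0.39. Both were lowest at 12 h, at a distance from untreated of over 3 technical SDs and short of 2-fold. With median centring the falls at 12 h were larger, -0.84 for HSPA8 and -0.93 for HSPD1. Relative to the median of all genes under that scaling they were -0.68 and -0.77. HSP90AB1, the constitutive cytosolic HSP90, was read by A_23_P145089 with changes of 0.19, 0.07 and 0.08 and by A_24_P823684 with changes of -0.28, -0.15 and -0.09. The pair disagreed in sign at every time, by 0.47 at 3 h and by 0.16 at 12 h. In Cy5 alone both HSP90AB1 probes were lower than in untreated cells at all 3 times, by log2 changes of -0.16 to -0.45.

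HSF1 itself had negative log2 changes on all 3 of its probes at all times, and none reached 2-fold. The brightest, A_33_P3347932, gave -0.03, -0.27 and -0.29 at 3, 6 and 12 h, and A_23_P253841 gave -0.26, -0.37 and -0.40. The third, A_33_P3347937, stayed within the technical SD at -0.05, -0.07 and -0.06. Its raw Cy5 signal was between 32 and 41.5, close to the median local background of 24, and it carries little weight. In Cy5 alone the brightest probe gave -0.29, -0.23 and -0.15 and A_23_P253841 gave 0.07, -0.21 and -0.10, so their size depended on the reference. Their size also depended on the scaling. With median centring the brightest probe gave 0.03, -0.53 and -0.73 and A_23_P253841 gave -0.17, -0.62 and -0.83. The array measures the amount of HSF1 transcript, not the activity of the protein.

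**Figure D2:**
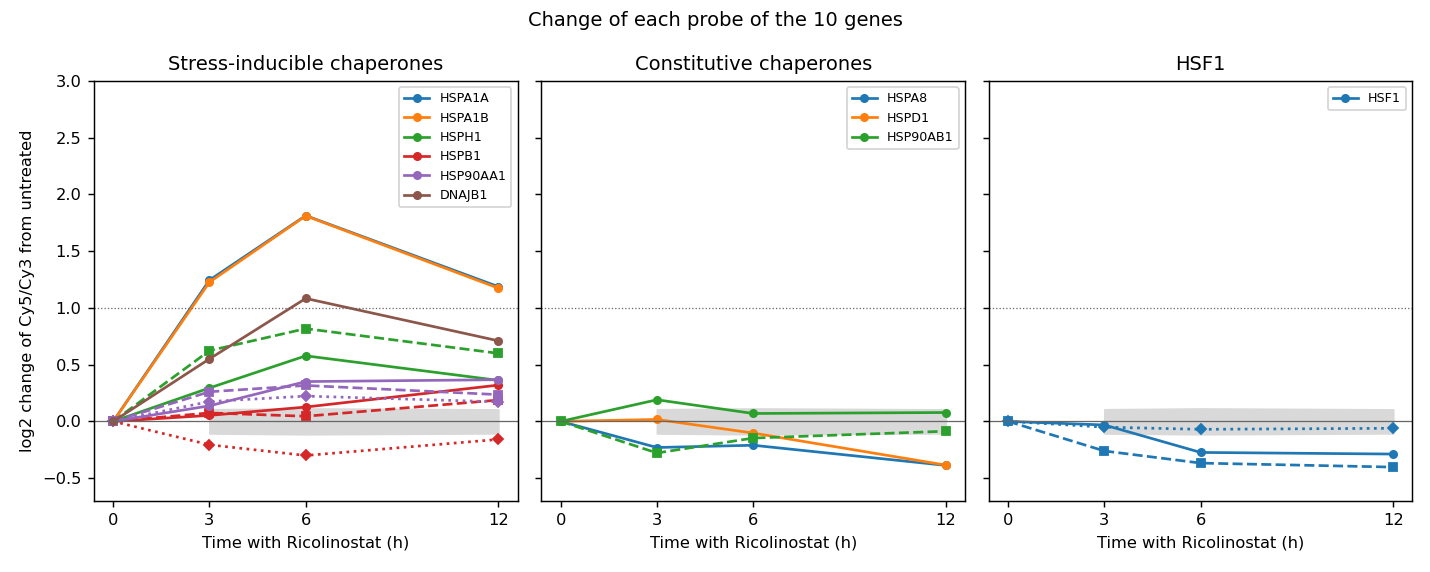
Log2 change of Cy5/Cy3 from untreated (vertical axis) against hours with Ricolinostat (horizontal axis) for the 18 probes, in panels for the stress-inducible genes, the constitutive genes and HSF1, with a colour per gene and line styles for probes of the same gene. The grey band is ± 1 technical SD and the dotted line marks 2-fold. HSPA1A and HSPA1B overlie each other and peak at 1.81 at 6 h, DNAJB1 peaks at 1.08, and every constitutive and HSF1 probe lies between -0.40 and 0.19.

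Counted over genes, each by its brightest probe in Cy3, 2 of the 10 genes were at least 2-fold higher at 3 h, 3 at 6 h and 2 at 12 h. The same was true of 1.69% of the 20766 genes tested at 3 h, 2.81% of 20342 at 6 h and 2.34% of 20479 at 12 h. No member was 2-fold lower at any time, beside 0.366%, 0.939% and 1.12% of all genes tested. At 1.5-fold the counts of higher members were 2, 3 and 3 (6.87%, 9.4% and 8.1% of all genes tested) and of lower members 0 at each time (1.96%, 4.42% and 5.13%). The 2-fold rises at 3 and 12 h are HSPA1A and HSPA1B alone, which may be a single signal. As reported, the 6 inducible genes were all above 0 at all 3 times, beside 51.4%, 52.8% and 52.5% of all genes tested. Their median log2 change was 0.42 at 3 h, 0.83 at 6 h and 0.54 at 12 h. In Cy5 alone it was 0.28, 0.56 and 0.26, and with median centring 0.52, 0.61 and 0.13. With median centring HSPB1 was below 0 at 6 and 12 h, and HSP90AA1 and HSPH1 at 12 h. In Cy5 alone HSPB1 was below 0 at all 3 times, HSP90AA1 at 3 and 12 h and HSPH1 at 12 h. HSPB1 was also below 0 at 6 h with the processed signals, and HSP90AA1 at 3 h in the authors' table. The 3 constitutive genes had medians of 0.02, -0.10 and -0.39, and all genes tested 0.01, 0.02 and 0.01. The classes were thus apart by 0.41 at 3 h, 0.93 at 6 h and 0.92 at 12 h. These medians and gaps count HSPA1A and HSPA1B as separate genes. Taken as 1 gene, they leave HSPH1 as the inducible median at 3 h (0.29) and 6 h (0.58). At 12 h it would be HSP90AA1 (0.37), and the gaps would be smaller at all times. The ranges of the classes touched at 3 h, where HSPB1 and HSP90AA1, at 0.05 and 0.14, lay below HSP90AB1 at 0.19. At 6 and 12 h the lowest inducible gene was above the highest constitutive one, HSPB1 against HSP90AB1 at 6 h (0.13 against 0.07) and again at 12 h (0.32 against 0.08). The gap at 6 h was smaller than the technical SD. It turned round in the authors' table (0.0052 against 0.023) and the processed signals (-0.11 against -0.0039). In Cy5 alone the highest constitutive gene was HSPA8, and HSPB1 lay just below it (-0.171 against -0.167) but above HSP90AB1 (-0.214). At 12 h the order held under all settings. The dim HSPB1 probe, at -0.30 at 6 h and -0.16 at 12 h, lay below both HSP90AB1 probes. Ordered by the change at 6 h, HSPA1A and HSPA1B could not be told apart, DNAJB1 and HSPH1 followed with gaps above the technical SD, and HSP90AA1 came next, again by more than that SD. HSPB1 and HSP90AB1 (0.13 and 0.07) did not differ by more than the SD. HSPD1 at -0.10 lay lower than the brightest HSP90AB1 probe by more than the SD. The other HSP90AB1 probe, at -0.15, lay below HSPD1, so that order depended on the probe. The steps from HSPD1 to HSPA8 at -0.21 and from there to HSF1 at -0.27 were smaller than the SD. This SD is between spots of the same probe and leaves out differences between probes.

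In time, 4 of the 10 genes (HSPA1A, HSPA1B, DNAJB1 and HSPH1) had their highest log2 ratio of the 4 arrays at 6 h, as did 23.0% of the 19891 genes measured on all arrays. For HSPH1 this depended on the processing. It was highest at 3 h with median centring (0.38 beside 0.32 at 6 h) and in Cy5 alone (0.25 beside 0.11). The 3 genes that passed 2-fold at 6 h were all highest then, and so were 65.7% of the 571 genes measured on all arrays that did.

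The choice of processing changed no sign of HSPA1A, HSPA1B or DNAJB1 but took each of them under 2-fold at a time point. Over 10 ways of processing, HSPA1A ranged from 1.25 to 1.37 at 3 h, from 1.60 to 1.93 at 6 h and from 0.76 to 1.28 at 12 h. DNAJB1 ranged from 0.30 to 0.66 at 3 h, from 0.90 to 1.11 at 6 h and from 0.35 to 0.72 at 12 h, and its value of 0.90 at 6 h, with median centring, lost its only call. HSPA1B at 12 h was at 0.80 with median centring and at 0.97 in Cy5 alone. The lowest HSPA1A value at 12 h came from centring each array on its median, which put the median of all genes at -0.16. Relative to that shift HSPA1A was at 0.92 and HSPA1B at 0.96, under 2-fold. Of 30 combinations of gene and time, 20 kept their sign under all settings. The other 10 were HSPB1 and HSP90AB1 at all 3 times, HSP90AA1 at 3 and 12 h, HSPH1 at 12 h and HSF1 at 3 h. HSPA8 was below 0 at all times under all settings, and HSPD1 at 6 and 12 h.

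**Figure D3:**
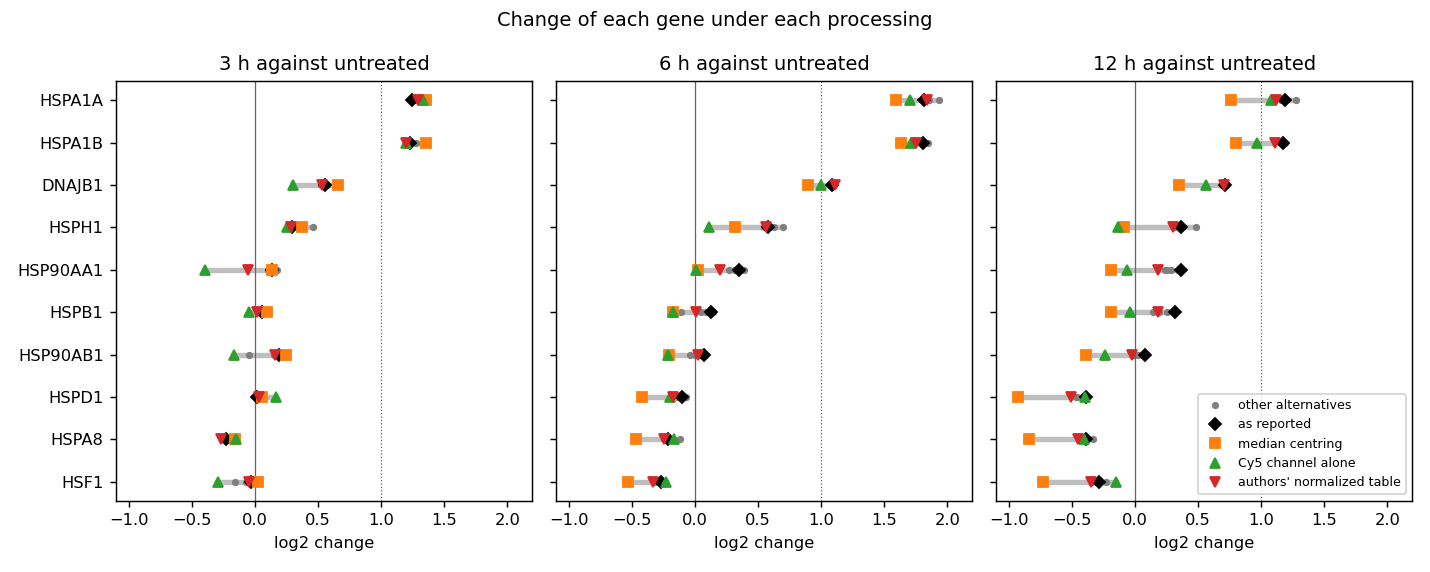
Log2 change from untreated (horizontal axis) of each of the 10 genes (vertical axis) at 3, 6 and 12 h, as reported (black diamonds) and under the alternatives (other symbols), with a grey bar from the lowest to the highest value. Dotted lines mark 2-fold. HSPA1A and HSPA1B stay apart from the other genes in every panel, DNAJB1 comes next at 6 and 12 h, and the bars of HSPB1 and HSP90AB1 cross 0 in each panel.

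A further 18 genes were listed as heat shock factor targets, and whether each responds to these factors was not checked here. Of this list, 1 of 18 tested was at least 2-fold higher at 3 h, 2 of 17 at 6 h and 1 of 18 at 12 h. The shares of all genes tested were 1.69%, 2.81% and 2.34%. At 12 h 1 gene of the list was 2-fold lower, beside 1.12% of all. The list had median log2 changes of 0.11, 0.07 and 0.12. DNAJB4, a J-protein related to DNAJB1, was the gene that rose at all 3 times, with changes of 1.20, 1.35 and 1.01 (0.87 at 12 h with median centring). HSPA1L, an HSP70 gene next to HSPA1A on the chromosome with no protein-coding gene in between, had 0.62, 1.19 and 0.77, and like HSPA1A was highest at 6 h. Its raw Cy5 signal was low, 150 untreated and 369 at 6 h, beside 15117 and 41333 for HSPA1A. Whether its probe also reads HSPA1A transcripts was not tested. SERPINH1, the collagen chaperone HSP47, went from 0.15 at 3 h to -0.49 at 6 h and -1.49 at 12 h. HSPE1, the HSP10 partner of HSPD1, was at -0.39 at 12 h, close to HSPD1 itself. BAG3 and HSPA6, singled out after their values were seen because both are strongly heat-inducible, had changes of 0.04, -0.05 and 0.03 and of -0.19, -0.18 and -0.13.

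Among partners of HSP70 and HSP90, single genes passed 2-fold. None of the 7 HSP90 co-chaperones tested of 8 passed 2-fold on the brightest probe, and their medians were 0.06, 0.04 and 0.19. Their highest values at 12 h were ST13 at 0.52, on a spot in a damaged area, and STUB1 at 0.42, and their lowest PPP5C at -0.38 and PPID at -0.27. The 6 other ST13 probes measured ran from -0.12 to 1.24 at 3 h, the highest of them past 2-fold. Of 11 other HSP70 family members and partners tested of 12, DNAJA2, a J-protein, had changes of 1.49, 1.56 and 1.32 on a probe in a damaged area. BAG2, which inhibits the ubiquitin ligase STUB1, was at -0.44, -0.99 and -1.06, and at -0.85 at 12 h in Cy5 alone. HSPA12A was at 0.56 and HSPBP1, an exchange factor, at -0.24 at 12 h. The 7 factors that bind or modify HSF1 did not reach 2-fold. Among them HSF2, a related factor, had 0.77, 0.85 and 0.58 and SIRT1, a deacetylase of HSF1, 0.47, 0.79 and 0.52. HDAC6, the target of the drug, had -0.41, -0.25 and -0.51 on its brighter probe and -0.25, -0.0049 and -0.20 on the other. EP300, an acetyltransferase, had -0.26, -0.53 and -0.51.

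Chaperones of the endoplasmic reticulum, whose genes answer to other factors than HSF1, had medians of 0.36, 0.39 and 0.61 over 14 genes at 3, 6 and 12 h. Their order in time depended on the scaling, since median centring gave 0.42, 0.15 and 0.13. As reported, 2 of the 14 were at least 2-fold higher at 12 h. HSPA5, the HSP70 of the endoplasmic reticulum, went from 0.24 at 3 h to 0.73 at 6 h and 1.51 at 12 h, where HSPA1A was past its highest value. MANF, a secreted chaperone cofactor, followed the same order with 0.66, 0.97 and 1.19 (0.90 at 12 h in Cy5 alone), while CANX (calnexin) was lowest at 12 h with -0.24 and CRELD2 next with 0.15. PDIA3 was at 1.09 at 3 h in a damaged area and at -0.77 in Cy5 alone. The cytosolic chaperonin, tested by 7 of its 8 subunits, had medians of 0.11, 0.03 and -0.09 and no gene past 2-fold. TCP1 was its highest at 12 h with 0.48, then CCT7 with 0.16, and CCT4 its lowest with -0.26, then CCT2 with -0.11. The 31 proteasome subunits had medians of 0.07, 0.08 and 0.09. At 12 h they ran from PSMD7 at -0.54 (damaged area) and PSMC5 at -0.37 to PSMA2 at 0.50 and PSMD2 at 0.53, and the 2 that passed 2-fold at 3 h, PSMB3 and PSMA4, lay in a damaged area and were at -1.20 in Cy5 alone. Further probes measured for TCP1, CANX and PSMD2 gave 0.15, 0.08 and -0.09 at 12 h, so those extremes rest on the brighter probe.

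**Figure D4:**
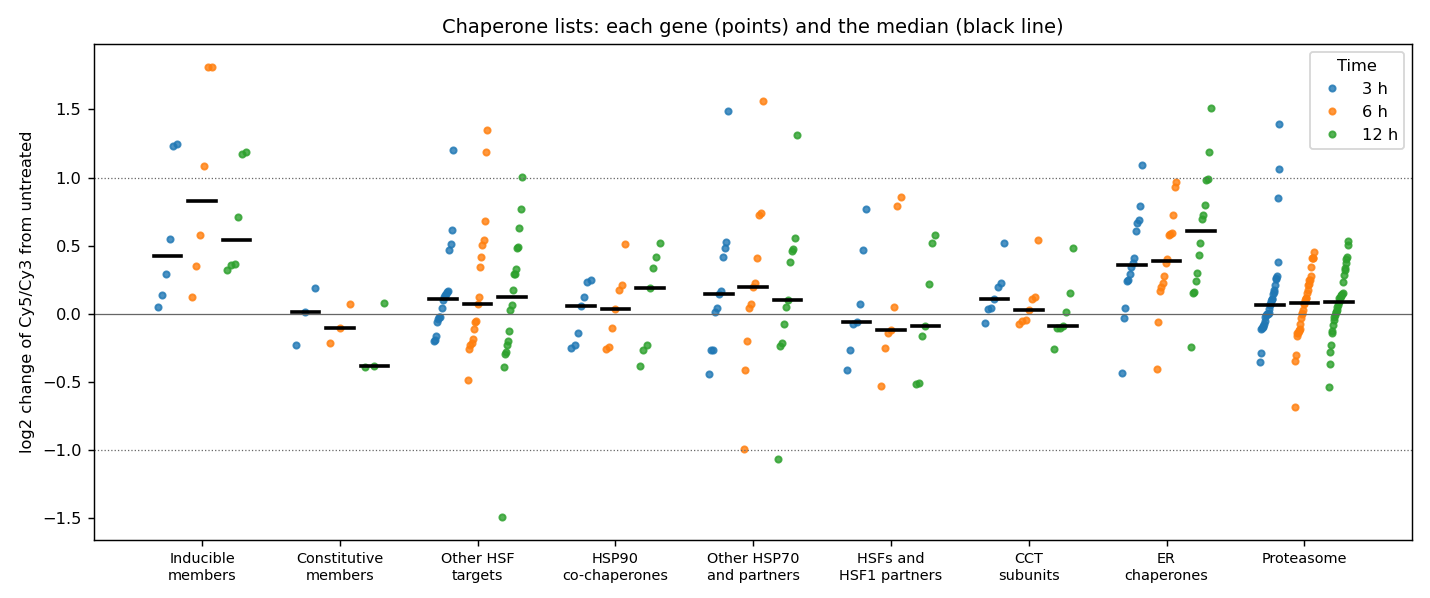
Log2 change from untreated (vertical axis) of each gene tested (points, coloured by time) in the inducible and constitutive groups and in 7 lists of related genes (horizontal axis), with the median of each as a black line and dotted lines at 2-fold. The inducible group has medians of 0.42, 0.83 and 0.54, the constitutive group has medians below 0 at 6 and 12 h, and the endoplasmic reticulum list has its highest median, 0.61, at 12 h (0.13 there with median centring).

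The genes whose changes over the 3 time points were nearest to those of HSPA1A were looked for among the 19891 genes measured on all arrays. The nearest was HSPA1B, at a Euclidean distance of 0.02 in log2 units, followed by WDR19 at 0.11, RASSF5 at 0.15, CASZ1 at 0.17 and DEPDC7 at 0.17. WDR19 had changes of 1.14, 1.80 and 1.20. The likeness rests on 3 values, all relative to the same untreated array.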

How the data were processed

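The authors deposited scanner output for each of the 4 arrays (Feature Extraction 12.0.1.1, array annotation on hg19), which gives the median intensity of 62976 spots and their background in Cy5 and Cy3, processed signals and flags. Another deposited table holds the authors' own normalized values, log2 of Cy5 over Cy3, whose normalization is not given in the sources used here. Its gene symbols were used. All of its sample columns were mapped.

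Intensities were background-corrected (normexp, offset 50), normalized by loess and Aquantile in limma 3.58.1 under R 4.3.3, with control spots and flagged outlier spots at weight 0 and outlier spots then left out. Repeated spots were averaged, and each gene was read from its brightest probe in Cy3. A gene was tested where that probe passed the scanner's well-above-background flag in Cy5 and in Cy3 on the untreated and the treated array, and called at a log2 change of 1 or more (2-fold). With 1 array per condition no test was made. Precision is limited by the number of arrays. Damaged areas are windows (13 rows by 7 columns) where 10% or more of the spots were defective. Tables were made in Python 3.11.15 (pandas 2.3.3, numpy 2.4.6). The steps were tested on simulated data.

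The members, gene lists and alternatives were chosen with earlier results of these data known. The text names the 10 members, the 2 highest and 2 lowest genes of each other list at 12 h, list genes past 2-fold at any time, and the 5 genes nearest to HSPA1A. A gene that this rule names is not reported here. PTGES3, HSPA4 and CCT8 were not tested because their spot on the untreated array was flagged. Alternatives covered background correction, normalization, Cy5 alone, the processed signals, the authors' table, the probes of a gene, damaged areas, dim probes and the threshold. RefSeq promoter sequences are of GRCh38.p14.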

Additional observations from a re-analysis of the deposited data

How the results depend on the processing

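No paired analysis was possible because each condition has 1 array. No alternative turned the direction of the difference between inducible and constitutive genes, which was 0.55 at 3 h with the median over a gene's probes and, with Cy5 alone, 0.76 at 6 h and 0.66 at 12 h. The number of genes at least 2-fold higher at 12 h, 2 as reported, was 0 with median centring and 1 with Cy5 alone. At 6 h it was 2 in place of 3 with median centring, without DNAJB1. The median of the 18 other heat shock factor targets was -0.16 at 6 h and -0.13 at 12 h with median centring and -0.024 at 12 h with Cy5 alone. The cause of these shifts was not tested. Over 9 alternatives, the single genes gave 212 values within 1 technical SD of the reported one and 58 beyond it. The 212 include values that could not move. Leaving out damaged areas or the filter on dim probes changed nothing, as 0 of the 18 member probes were damaged and all 18 passed the filter. The median over probes could not change the 5 genes with a single probe. The alternative with the mean signal of a spot was not run, because only median signals were used here. The dim HSF1 and HSPB1 probes limit what can be said of those genes.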
